A study of Mus musculus with 15 samples.

Results

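The Arp2/3 complex is described here across 6 RNA-seq libraries of mouse 2-cell embryos. Its subunit genes were taken by symbol from the deposited expression table as Actr2, Actr3, Arpc1a, Arpc1b, Arpc2, Arpc3, Arpc4, Arpc5 and Arpc5l. All 9 were found, each on 1 row among the 53023 genes of the table, and were set against Actb, the gene of cytoplasmic beta-actin. The study disrupted or altered filamentous actin in the nuclei of zygotes and read the transcriptome of pools of 5 ICR embryos, 32 hours after insemination. Each injected actin was tagged with HA and directed to the nucleus by a localisation signal (NLS).

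The 6 libraries form 3 pairs, and the sample titles go against the field that names the injected mRNA. Pair C was annotated as injected with actinR62D-HA-NLS, a mutant actin that does not polymerise, and was titled as a non-injected control. Pair B was annotated as injected with actinWT-HA-NLS and was titled R62D. Pair A was annotated as non-injected and was titled Wt. No reading was chosen from the values, so the groups are called pairs C, B and A, and their libraries C1, C2, B1, B2, A1 and A2. Wherever a pair has 2 values, that of library 1 precedes that of library 2. The samples with Exportin 6 and R62D, with G15S, and the non-injected samples beside them, 9 in all, were not analysed here. A pool mixes both cells of every embryo, so fewer cells and less RNA per cell cannot be told apart.

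The complex starts a new actin filament as a branch on the side of an existing one. Arp2 and Arp3, the proteins of Actr2 and Actr3, resemble actin and form the start of the new filament. The subunits named ARPC hold them on the mother filament. ARPC1 and ARPC5 are each made by a choice of paralogous genes, Arpc1a or Arpc1b and Arpc5 or Arpc5l. The complex is inactive until activators of the WASP and WAVE families bind it, and in mouse oocytes and embryos it is known for building the cortical actin layer.

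Libraries held 907210 to 1555431 assigned reads, so 1 read in a gene of 2 kb was worth 0.321 to 0.551 FPKM (fragments per kilobase of gene, scaled to the assigned reads of the library). C2 and A2 stood apart on principal component 1 (28.7% of the variance), at 49.7 and 49.3, against -32.7 to -11.1 in the other 4. Of 10 markers of the 2-cell embryo all passed the filter of a mean of 1 FPKM, with summed levels of 1284 and 1264 FPKM in pair C, 1788 and 1953 FPKM in pair B and 1386 and 1078 FPKM in pair A. Of 10 oocyte and egg markers 9 passed, with summed levels of 940.6 and 550.5 FPKM in pair C, 1156 and 974.6 FPKM in pair B and 1156 and 532.9 FPKM in pair A. C2 and A2 were thus the lowest in this sum too, most of which came from Oosp1 (299.1 to 865.1 FPKM). Bmp15 and Gdf9 were also lowest in C2 and A2, while Zp3 was highest in A2 (142 FPKM). Of 12 cumulus and granulosa markers 6 had 0 reads in every library, among them Fshr and Foxl2, and the list summed to 4.43 to 10.9 FPKM. In that list 2 passed, Amhr2 at 2.75 to 8.03 FPKM (5 to 25 reads) and Tnfaip6 at 0 to 2.45 FPKM. Of 8 sperm markers 3 had 0 reads throughout, and the list summed to 31.4 to 52.1 FPKM (65 to 176 reads), most of it from Ldhc at 28.6 to 46.0 FPKM. Of 10 blood cell markers 3 passed, Hba-a1 (4.75 to 42.3 FPKM), Cd52 (1.86 to 14.1 FPKM) and Cd68 (0 to 6.66 FPKM). Hbb-bs, Hbb-bt and Tyrobp had 0 reads in every library, and the list summed to 11.35 to 50.99 FPKM. It had 54.8 and 11.5 reads in pair C, 58.7 and 50.8 in pair B and 44.8 and 25.5 in pair A. The part of this range in the results was not tested.

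The paralogous subunits can be told apart by reads of this length, and the sequences below show where they are most alike. Each line is the stretch of 100 coding bases with the fewest differences in an alignment of the coding sequences, and capitals mark the bases that differ.
Arpc1a: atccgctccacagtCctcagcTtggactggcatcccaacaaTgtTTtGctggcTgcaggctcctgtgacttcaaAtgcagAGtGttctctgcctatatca
Arpc1b: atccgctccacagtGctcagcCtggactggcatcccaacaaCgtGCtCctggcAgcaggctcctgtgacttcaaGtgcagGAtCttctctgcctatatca
Arpc5: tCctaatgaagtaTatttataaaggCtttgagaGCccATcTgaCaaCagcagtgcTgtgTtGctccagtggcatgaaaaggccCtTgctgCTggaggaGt
Arpc5l: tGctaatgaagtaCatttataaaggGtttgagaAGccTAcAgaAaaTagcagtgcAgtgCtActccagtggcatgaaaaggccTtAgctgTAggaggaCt
Actr3: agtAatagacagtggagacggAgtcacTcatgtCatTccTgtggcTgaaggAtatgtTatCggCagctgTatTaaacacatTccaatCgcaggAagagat
Actr3b: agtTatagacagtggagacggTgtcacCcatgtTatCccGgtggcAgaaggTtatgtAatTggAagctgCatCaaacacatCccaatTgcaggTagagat

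The Arpc1a and Arpc1b windows lie at coding bases 421 to 520 of both genes and differ at 11 bases. Over the whole alignment 73.9% of 1098 columns were identical and the longest identical run was 21 bases. The Arpc5 window (coding bases 314 to 413) and the Arpc5l window (320 to 419) differ at 18 bases, with 71.3% of 450 columns identical and a longest run of 21 bases. Actr3 (498 to 597) and its isoform gene Actr3b (234 to 333), which is no member, differ at 16 bases, with 76.0% of 990 columns identical and a longest run of 20 bases. No identical run reached 50 bases, the length of the longer read. The coding sequences are those of the longest protein-coding transcript of each gene in GENCODE M21 (build mm10).

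Other genes do share sequence with some members. Of the words of 50 bases in its longest coding transcript, Actr3 shared 49.8% with other genes, nearly all with the processed pseudogene Gm8822 on chromosome X. Gm8822 was itself listed at 7.75 to 10.9 FPKM (16.5 to 30.8 reads) in the 6 libraries, so the level of Actr3 is uncertain. Arpc1b shared 42.2% of its words, most with Pdap1, a gene on the other strand whose exons overlap it by 931 bases. The handling of strand is not given in the sources used here, so reads of Arpc1b and Pdap1 cannot be told apart there. Arpc4 shared 10.5% with Ttll3, whose exons overlap its own by 283 bases on the same strand. The share was 2.04% or less for Arpc5, Arpc1a, Actr2 and Arpc2, and 0% for Arpc3 and Arpc5l. Exons of Arpc5l nevertheless overlap those of Wdr38 on the same strand and Rpl35 on the other by 62 bases each, and exons of Arpc1a overlap Kpna7 on the other strand by 50 bases. Exon bases outside the longest coding transcript were not searched for shared words. That transcript has 1339 bases for Arpc5l, whose exons span 4498, and 899 for Arpc3, whose exons span 2762.

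The 9 genes spanned a wide range of levels. Arpc2 stood highest at 80.4 ± 11 FPKM (SD, n = 6 libraries), above 92.1% of the 13443 genes tested. Arpc5l followed at 29.5 ± 6.48 FPKM, Arpc1a at 26.0 ± 4.68 FPKM, Actr3 at 23.2 ± 2.92 FPKM and Actr2 at 16.1 ± 3.05 FPKM. Arpc3 (5.94 ± 2.36 FPKM) and Arpc5 (5.59 ± 2.54 FPKM) lay near the middle of the genes tested, and Arpc4 (1.24 ± 0.63 FPKM) above 6.76% of them. Arpc1b averaged 0.555 ± 0.396 FPKM and was the 1 member below the filter, so 8 of 9 were tested between pairs.

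Several neighbours in this order were not separated by their spread. Arpc2 was above Arpc5l in 6 of 6 libraries and Actr2 above Arpc3 in 6 of 6, with no overlap of their ranges. Actr3 was above Actr2, Arpc5 above Arpc4, and Arpc4 above Arpc1b in 6 of 6 libraries each, although their ranges over the libraries overlapped. The order of Arpc4 and Arpc1b rests on 1 to 5 and 0 to 6.75 reads per library and on their lengths (2321 and 5115 bases). Arpc1b held more reads than Arpc4 in C1, B1 and A1, and fewer in C2, B2 and A2. Arpc5l was above Arpc1a in 4 of 6 libraries, Arpc1a above Actr3 in 4 of 6, and Arpc3 above Arpc5 in 3 of 6, so these neighbours did not differ beyond their spread.

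**Figure D1:**
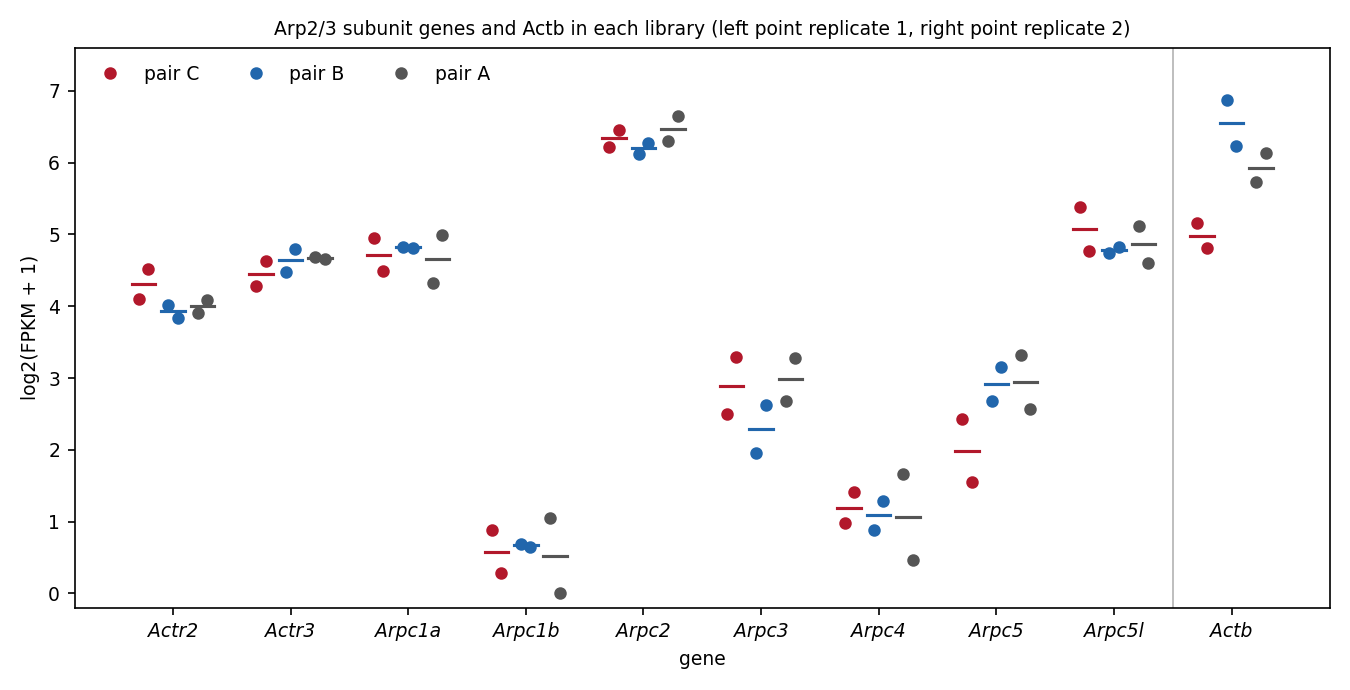
Level of each Arp2/3 subunit gene and of Actb as log2(FPKM + 1) (vertical axis) in the libraries of pair C, pair B and pair A (points) with the mean of each pair (short lines). With the deposited lengths Arpc2 lay highest and Arpc1b lowest among the subunit genes in all 6 libraries, Arpc1b and Arpc4 on few reads, and Actb was lowest in pair C.

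The deposited levels are per kilobase of all exons of a gene, and this length exceeds the mRNA by different factors. For Arpc5l the union of exons (4498 bases) was 3.36 times its longest coding transcript (1339 bases), and for Arpc3 3.07 times (2762 against 899 bases), while for Arpc4 it was 1.02 times. Per coding transcript, Arpc5l averaged 99.1 ± 21.8 FPKM and Arpc2 114 ± 15.5 FPKM, and Arpc2 was above Arpc5l in 4 of 6 libraries in place of 6. Arpc3 then averaged 18.2 ± 7.26 FPKM and was above Arpc5 (6.64 ± 3.02 FPKM) in 6 of 6 libraries in place of 3 (SD, n = 6 for each). Actr3 averaged 41.9 ± 5.27 FPKM and Arpc1a 40.8 ± 7.36 FPKM on this scale, with Actr3 above in 3 of 6 libraries. Arpc4 (1.27 ± 0.65 FPKM) and Arpc1b (0.914 ± 0.652 FPKM) remained the lowest, with Arpc4 above in 4 of 6 in place of 6. The transcript in use cannot be read from the table, so both lengths are given.

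**Figure D2:**
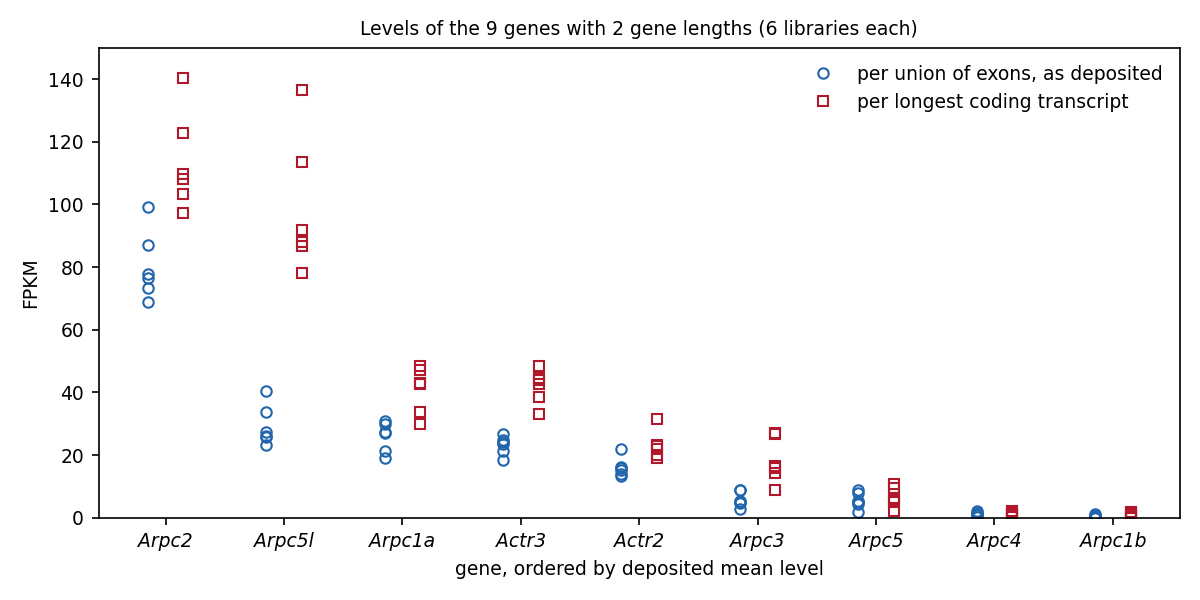
Level in FPKM (vertical axis) of each subunit gene in the 6 libraries, per union of exons as deposited (circles) and per longest coding transcript (squares), with genes ordered by the deposited mean. Arpc5l and Arpc3 moved by the largest factors (3.36 and 3.07 times), and Arpc4 and Arpc1b lay lowest with both lengths.

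The actin-related pair comes first by role. Actr2 (chromosome 11, 20062304 to 20112913, minus strand, mm10), which encodes Arp2, measured 16.2 and 21.9 FPKM in pair C, 15.3 and 13.4 FPKM in pair B and 14.0 and 16.0 FPKM in pair A. Both C libraries were above the other 4, C1 by a narrow margin. Actr3 (chromosome 1, 125392905 to 125435727, minus strand), which encodes Arp3, measured 18.4 and 23.7 FPKM in pair C, 21.3 and 26.8 FPKM in pair B and 24.7 and 24.3 FPKM in pair A. C1 was its lowest library and pairs C and B overlapped. Actr2 was below Actr3 in 6 of 6 libraries, with a mean log2 ratio of -0.51 ± 0.33 (SD, n = 6, exact two-sided sign-flip permutation test, adjusted p = 0.031 over 3 pairs of genes, the smallest that 6 libraries allow). The level of Actr2 was 0.878 and 0.926 times that of Actr3 in pair C, 0.716 and 0.499 times in pair B and 0.567 and 0.657 times in pair A. The ratio was higher in both C libraries than in the other 4, a difference noticed in the values and not tested. Per coding transcript the mean log2 ratio was -0.84. From reads not divided by length it was -0.36 and did not pass (exact permutation test, adjusted p = 0.094), and C2 then held more reads of Actr2 (103.5) than of Actr3 (99.5). Actr3 also shares sequence with Gm8822.

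The ARPC1 subunit binds the activators and the mother filament, and Arpc1a was its main gene. Arpc1a (chromosome 5, 145083830 to 145108761, plus strand) measured 29.9 and 21.5 FPKM in pair C, 27.4 and 27.1 FPKM in pair B and 19.1 and 30.8 FPKM in pair A. The 3 pairs overlapped, with A1 lowest and A2 highest. Arpc1b, downstream on the same strand (145114215 to 145130705), measured 0.848 and 0.216 FPKM in pair C, 0.618 and 0.573 FPKM in pair B and 1.08 and 0 FPKM in pair A. These values rest on 6.75 and 1 reads in pair C, 4 and 3.5 reads in pair B and 5.5 and 0 reads in pair A, and 0 reads in A2 allow a level of up to 0.525 FPKM (3 reads, counting error only). Arpc1a was above Arpc1b in 6 of 6 libraries, by 46.8 times in mean level and by a mean log2 ratio of 4.14 ± 0.54 (SD, n = 6, exact two-sided sign-flip permutation test, adjusted p = 0.031). On log2(FPKM + 1), as here, the ratio is understated because Arpc1b is so low.

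The 250 bases before the RefSeq start (GRCm38.p6) held 18 CG dinucleotides in Arpc1a and 20 in Arpc1b, against a median of 6 over 27025 such regions. Fewer were held by 78.4% of the regions for Arpc1a and 82.3% for Arpc1b. The 8 members with a RefSeq entry ranged from 14 (Arpc4) to 37 (Arpc5). Neither the Arpc1a nor the Arpc1b region held the letters TATAAA on either strand, which 13.0% of all regions hold, and no member's region did among those 8. The letters GGGCGG, on either strand, were found in Arpc1b and not in Arpc1a, and in 5 of the 8 regions (Actr2, Actr3, Arpc1b, Arpc2 and Arpc5), against 32.9% of all regions. CCAAT, on either strand, was found in Actr2 and Arpc5, against 34.5% of all regions. These matches are descriptions of letters and not of bound sites.

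Arpc2 and Arpc4 form the core that clamps the complex to the mother filament, and they were the extremes among the genes with no paralog. Arpc2 (chromosome 1, 74236084 to 74268209, plus strand) measured 73.2 and 87.0 FPKM in pair C, 68.8 and 76.6 FPKM in pair B and 77.7 and 99.2 FPKM in pair A. Both A libraries were above both B libraries, and the libraries C2 and A2, which stood apart on principal component 1, held its highest values. Those libraries were also the lowest in the summed oocyte markers, and the part of this in the levels of Arpc2 was not tested. It supplied 158 to 231.5 reads per library. Arpc4 (chromosome 6, 113378115 to 113390448, plus strand) measured 0.970 and 1.66 FPKM in pair C, 0.852 and 1.44 FPKM in pair B and 2.15 and 0.385 FPKM in pair A. Those levels rest on 3.5 and 3.5 reads in pair C, 2.5 and 4 reads in pair B and 5 and 1 reads in pair A, at or near the floor of 3 reads, so no order among the libraries can be read from them.

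Arpc3, which bridges Arp3 to the rest of the complex, and the ARPC5 subunit, which ties Arp2 to it, complete the set. Arpc3 (chromosome 5, 122391878 to 122414184, plus strand) measured 4.66 and 8.78 FPKM in pair C, 2.86 and 5.15 FPKM in pair B and 5.43 and 8.74 FPKM in pair A. C2 and A2 were its highest libraries here too, and both B libraries lay below both A libraries. Its 10 to 27 reads per library leave a wide counting error.

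Arpc5l (chromosome 2, 39005348 to 39015877, plus strand) was the main ARPC5 gene, at 40.6 and 26.2 FPKM in pair C, 25.8 and 27.3 FPKM in pair B and 33.9 and 23.3 FPKM in pair A. The pairs overlapped. Arpc5 (chromosome 1, 152766542 to 152775597, plus strand) measured 4.38 and 1.94 FPKM in pair C, 5.38 and 7.91 FPKM in pair B and 9.01 and 4.91 FPKM in pair A. Both C libraries lay below the other 4, and C2, the shallowest library, held 4 reads against 12.5 to 21.5 reads in the rest. Arpc5 was below Arpc5l in 6 of 6 libraries, with a mean log2 ratio of -2.29 ± 0.64 (SD, n = 6, exact two-sided sign-flip permutation test, adjusted p = 0.031). In level Arpc5l exceeded Arpc5 by 9.27 and 13.5 times in pair C, by 4.80 and 3.45 times in pair B and by 3.76 and 4.74 times in pair A. The ratio was higher in both C libraries than in the other 4, again noticed in the values and not tested. Per coding transcript the mean log2 ratio was -3.80.

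Over all 6 libraries, differences between pairs included, the well-covered members varied less than Actb. The coefficient of variation was 12.6% for Actr3, 13.7% for Arpc2, 18% for Arpc1a, 18.9% for Actr2 and 22.0% for Arpc5l, where counting error alone gives 9.09%, 7.36%, 11.4%, 10.3% and 8.07% in the same order. Arpc3 (39.8% against 23.6% from counting) and Arpc5 (45.5% against 26.2%) varied more, and Arpc4 (51.0% against 56.3%) varied no more than its few reads give. Actb varied by 51.8% with 7.17% from counting, on 65.8 to 393.3 reads per library. That figure takes in the distance between its pairs. Actb measured 30.9 ± 5.33 FPKM in pair C, 95.1 ± 29.7 FPKM in pair B and 60.6 ± 12.2 FPKM in pair A (SD, n = 2 each). It is thus no measure of the spread within a pair.

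The subunit genes were also summed and set against Actb. A sum over 9 genes spreads less than a single gene by construction, so the spreads of the 2 are not compared. The 9 genes summed to 189 and 193 FPKM in pair C, 168 and 186 FPKM in pair B and 187 and 208 FPKM in pair A. Both B libraries lay below the other 4, B2 by a narrow margin, and pairs C and A overlapped. Actb measured 34.6 and 27.1 FPKM in pair C, 116 and 74.1 FPKM in pair B and 52.0 and 69.2 FPKM in pair A, and its pairs did not overlap. The sum was thus 6.29 ± 1.17 times Actb in pair C, 1.98 ± 0.75 times in pair B and 3.30 ± 0.43 times in pair A (SD, n = 2 each). Arpc2 alone supplied 38.7 to 47.8% of the sum with the deposited lengths. Over the 6 libraries the sum averaged 3.86 ± 2.08 times Actb with those lengths and 5.10 ± 2.79 times per coding transcript (SD, n = 6). Per coding transcript Arpc5l (99.1 FPKM) came near Arpc2 (114 FPKM). The median member was below Actb, at 0.630 ± 0.230 times its level in pair C, 0.156 ± 0.034 times in pair B and 0.2505 ± 0.0277 times in pair A. Actb shared 14.2% of its words of 50 bases with other genes. The injected mRNA coded for an actin, and whether its reads add to Actb was not tested.

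Single members changed places with Actb accordingly. Arpc2 was above Actb in C1 and C2, at 2.12 and 3.21 times its level, below and just above it in B1 and B2, at 0.593 and 1.03 times, and above it in A1 and A2, at 1.496 and 1.43 times. With the deposited lengths Arpc5l was above Actb in C1 alone, and the other 7 members were below Actb in all 6 libraries. Per coding transcript Arpc5l was above Actb in C1 (136 against 48.3 FPKM), C2 (88.1 against 37.8 FPKM) and A1 (114 against 72.5 FPKM). Actr3 was then above Actb in C2 (42.8 against 37.8 FPKM).

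**Figure D3:**
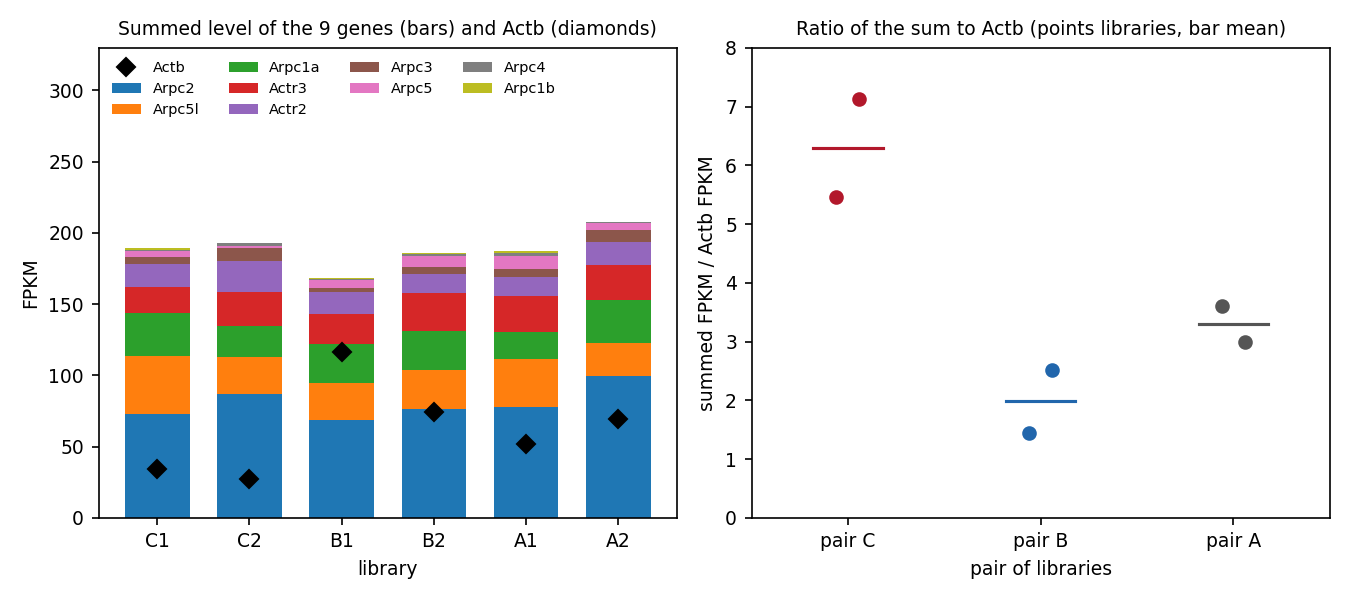
Left, the FPKM of the 9 subunit genes stacked by library with Actb as diamonds, and right, the ratio of the sum to Actb in each library of pairs C, B and A (points) with the mean of each pair (line). The stacks lie between 168 and 208 FPKM and Actb between 27.1 and 116 FPKM, and the ratio is highest in pair C and lowest in pair B.

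In C against B the mRNA field sets R62D beside wild-type nuclear actin, whereas the titles set no injection beside R62D. No subunit gene passed at an adjusted p below 0.05 (limma, 0 of 8 members, against 0% of 13443 genes, and 0 with limma-voom on recovered reads), nor at an unadjusted p below 0.05 (0 of 8, against 3.85% of all genes). Fold changes of 5 of 8 members were above 0 (49.9% of all genes), with a median of 0.12 beside 0 over all genes. The lowest was Arpc5 at -0.92 ± 0.48 (SE, limma, adjusted p = 1, 95% interval -2.04 to 0.20), and the highest was Arpc3 at 0.61 ± 0.46 (interval -0.48 to 1.70), in log2 of FPKM + 1. Actr2 had 0.38 ± 0.33 (interval -0.39 to 1.15). The size of these values depended on the libraries kept, and their direction did not. Without C2 they were -0.49 for Arpc5, where C2 held 4 reads, 0.21 for Arpc3 and 0.17 for Actr2. Without C1 they were -1.36, 1.00 and 0.585 in the same order. Leaving out any other library gave values between these. The pairs did not overlap for 2 of 8 members, Actr2 (higher in C) and Arpc5 (lower in C), which is 30.2% for all genes. Actb had -1.57 ± 0.35, with an adjusted p of 1 and an unadjusted p of 0.0025 (limma, interval -2.38 to -0.75).

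In C against A the mRNA field sets R62D beside no injection, whereas the titles set no injection beside Wt. Again 0 of 8 members passed (limma, adjusted p below 0.05, against 0% of all genes), and 0 of 8 had an unadjusted p below 0.05, against 3.01% of all genes. Of 8 fold changes 4 were above 0, against 56.5% of all genes, with a median of -0.01 beside 0.07 over all genes. Arpc5 was again the lowest at -0.95 ± 0.48 (SE, adjusted p = 1 in limma, interval -2.07 to 0.17), and Actr2 the highest at 0.31 ± 0.33 (interval -0.46 to 1.08). Without C2 the value was -0.52 for Arpc5 and 0.10 for Actr2, and without C1 it was -1.39 for Arpc5 and 0.52 for Actr2. The pairs did not overlap for 3 of 8 members, Actr2 (higher in C), Actr3 and Arpc5 (lower in C), against 26.9% of all genes. Actb had -0.95 ± 0.35 (adjusted p = 1 in limma). This comparison and the one with pair B share the C libraries, so the low Arpc5 in both rests on the same values.

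In B against A the mRNA field sets wild-type nuclear actin beside no injection, whereas the titles set R62D beside Wt. No member passed (limma, 0 of 8, against 0% of all genes), and 0 of 8 had an unadjusted p below 0.05, against 4.57% of all genes. Of 8 fold changes 2 were above 0, against 55.1% of all genes, with a median of -0.05 beside 0.07 over all genes. Arpc3 was the lowest at -0.70 ± 0.46 (SE, adjusted p = 0.991 in limma, interval -1.79 to 0.39), and Arpc1a the highest at 0.16 ± 0.36 (interval -0.68 to 1.00). The pairs did not overlap for 2 of 8 members, Arpc2 and Arpc3, both lower in B, against 31.7% of all genes. Arpc2 had -0.27 ± 0.29 and Actb 0.62 ± 0.35 (adjusted p = 0.991 in limma for both). Leaving out 1 library gave -1.03 (without B2) to -0.36 (without B1) for Arpc3 and -0.45 (without A1) to -0.10 (without A2) for Arpc2. It gave -0.17 (without A1) to 0.49 (without A2) for Arpc1a and 0.30 (without B1) to 0.94 (without B2) for Actb.

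**Figure D4:**
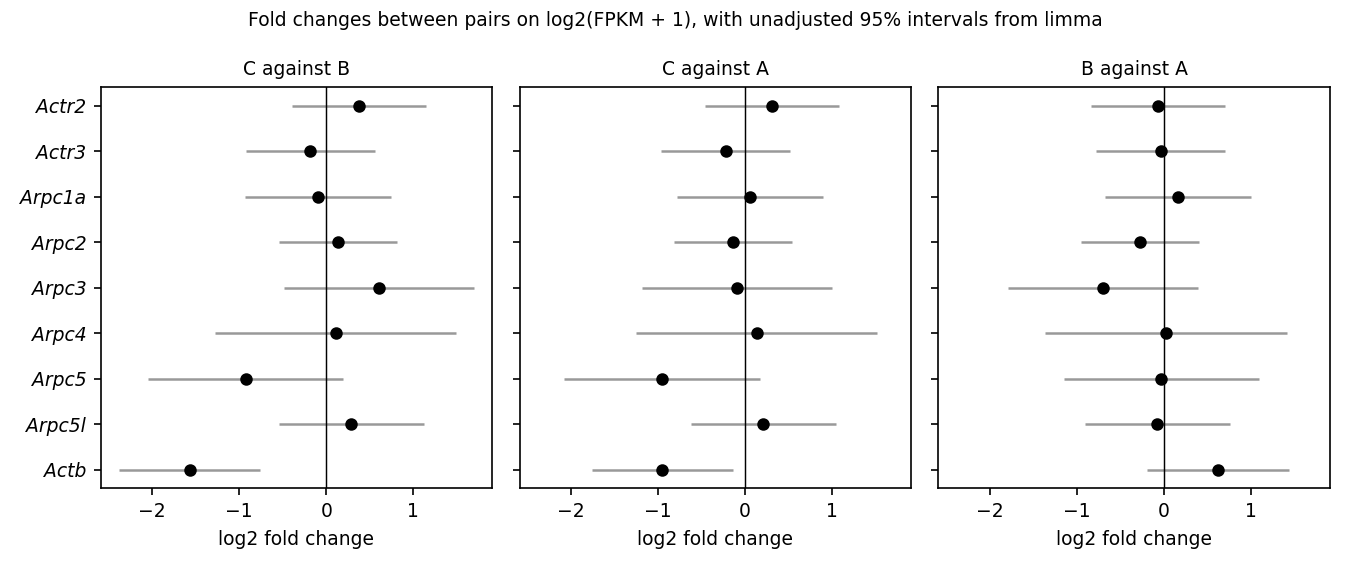
Log2 fold change of FPKM + 1 (horizontal axis, points) with its unadjusted 95% interval from limma (lines) for the 8 subunit genes tested and for Actb, in C against B, C against A and B against A. Every interval of a subunit gene includes 0, and those of Actb lie below 0 in C against B and C against A.

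The genes that activate or restrain the complex were read from 7 lists holding 48 genes, of which 25 were tested. In each of the 3 comparisons 0 of 25 passed, adjusted or unadjusted (limma), where an unadjusted p below 0.05 was reached by 3.85% of all genes in C against B, 3.01% in C against A and 4.57% in B against A. The medians over the 25 genes were -0.15 in C against B (0 over all genes), -0.02 in C against A (0.07 over all genes) and 0.13 in B against A (0.07 over all genes). Since no listed gene had an unadjusted p below 0.05, the highest genes of each list are given by level over the 6 libraries (SD, n = 6).

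Among 8 WASP and WHAMM family activators, of which 5 were tested, Wasl, which encodes N-WASP, stood highest at 30.9 ± 9.58 FPKM, and Jmy, an activator that also moves to the nucleus, followed at 7.98 ± 1.77 FPKM. Wasf1, Wasf2 and Wasf3, the WAVE genes, averaged 2.46 to 3.57 FPKM, while Was, of blood cells, did not pass the filter. Among 7 partners of the WAVE proteins, of which 4 were tested, Nckap1 measured 57.8 ± 10.02 FPKM and Brk1 48.9 ± 14.1 FPKM, both of the regulatory complex that holds WAVE inactive. All 7 genes in the list of WASH complex partners were tested, led by the capping protein subunits Capza2 at 33.0 ± 4.29 FPKM and Capza1 at 21.8 ± 4.80 FPKM. Washc3 and Washc4 lay close to the filter, each with a mean of 1.07 FPKM. Washc1, which was placed among the activators, did not pass it (0.67 FPKM, 0 to 5 reads).

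Of 12 upstream GTPases and adaptors 7 were tested. Cdc42, the GTPase that activates N-WASP, measured 305.4 ± 35.5 FPKM, more than any subunit gene, and Rhoa 29.1 ± 6.24 FPKM. Rac1, the GTPase upstream of WAVE, averaged 27.4 ± 5.61 FPKM. Genes that stabilise or restrain branches were mostly below the filter. Cttn, cortactin, averaged 3.27 ± 0.91 FPKM as the 1 of 4 in its list that was tested, and Abl1, the next in level there, 0.39 FPKM. Of 9 inhibitors and debranching factors Gmfb alone was tested, at 6.77 ± 2.94 FPKM, with 0.89 ± 0.41 (SE) in B against A at an unadjusted p of 0.063 (limma). Coro1a, which is also in the list of blood cell markers, followed at 0.90 FPKM, carried by B2 (3.31 FPKM, 11 reads) with 0 to 0.71 FPKM in the other 5 libraries, while Arpin, an inhibitor of the complex, averaged 0.36 FPKM. Actr3b, the isoform gene of Arp3, averaged 0.48 FPKM on at most 3 reads per library.

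The mean of the 9 members moved by 0.29 between its lowest library (B1) and its highest (A1) on the log2 scale. Among 7019 genes of at least 5 FPKM and at least that range, the closest in pattern over the 6 libraries were Ddx19a, Rpl7l1 and Ppm1b, with root mean square differences of 0.059, 0.062 and 0.063. With so many candidates and a pattern this flat, likeness is given as a description only.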

How the data were processed

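Injection took place 2 hours after insemination, per the labels' protocols, and polyA cDNA of each pool, with ERCC spike-in RNA added, was amplified and read in pairs of 50 and 25 bases. The submitters' processing notes name the build mm10 and, with no version, STAR, featureCounts, cutadapt, Trim Galore and Trimmomatic. The deposited table holds FPKM values and gene lengths made by the authors, with 0 spike-in rows. FPKM times length gave reads up to 1 factor per library: every nonzero value fell on a multiple of 0.01 read, within 0.0002, and 55.6% to 57.9% were whole (tolerance 0.001 read). Intervals and floors (3 reads) cover counting error only, and the labels mention no molecular tags. Of the gene IDs 94.8% are in GENCODE M21 with the same version, all 9 members among them.

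Genes averaging 1 FPKM or more were fitted as log2(FPKM + 1) in limma 3.58.1 (R 4.3.3), with 1 mean per pair, a variance trend and Benjamini-Hochberg adjustment over 13443 genes. Such fold changes understate the change of low genes. The method was tested on simulated data, in which the changes were larger than any member's fold change here. That test does not tell whether changes as small as the members' would be found. Nothing in the labels says that pools came from separate matings, so a p-value reflects only how far these libraries spread, which may be technical. The members, lists, tests and alternatives were chosen with earlier results of these data known. From each pathway list the genes with an unadjusted p below 0.05 and the 2 highest in level were to be named. Wasf1, Wasf2, Wasf3, Was, Washc1, Rac1, Arpin and Actr3b were added for their role, and Washc3 and Washc4 for their low level. The closest patterns were ranked over the libraries by root mean square difference. Printed sequences come from the GENCODE M21 transcripts, and upstream regions were read from RefSeq (GRCm38.p6).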

Additional observations from a re-analysis of the deposited data

How the results depend on the processing

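The counts of genes past the threshold stayed at 0 in all 3 comparisons under every alternative, limma-voom on recovered reads and the replicate number as a block among them, except that 1 gene, which is no member, passed in C against B with a pseudocount of 0.1 FPKM. No member passed under any alternative. Where a library was left out, its pair held 1 library, assumed to vary like the others. Without C2 and A2, C against A was 1 library against 1 with the spread taken from pair B, so these counts of 0 say nothing about stability. The replicate numbers do not mark shared animals in the labels, and deviations of same-numbered libraries correlated at 0.005 (C and B), 0.20 (C and A) and 0.098 (B and A). The replicate block gave 0 calls as well.

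Ratios between subunits kept their direction. Leaving out 1 library gave -0.588 to -0.419 for Actr2 over Actr3, 3.97 to 4.31 for Arpc1a over Arpc1b and -2.42 to -2.11 for Arpc5 over Arpc5l, and without C2 and A2 they were -0.591, 3.91 and -2.12. With 5 or 4 libraries the exact test cannot pass. From reads not divided by length, Actr2 over Actr3 was -0.363. The median member in place of the sum was 0.345 times Actb. Leaving out 1 library moved the mean ratio of the sum to Actb from 3.86 to between 3.21 and 4.34. With the length of the coding transcript that mean ratio was 5.10.

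Of 27 fold changes of members and Actb, 14 changed sign when 1 library was left out, all of them members within 1 SE of 0. Their ranges over the 6 omissions were, in C against B, -0.330 to 0.131 (Arpc1a), -0.111 to 0.324 (Arpc4) and -0.018 to 0.594 (Arpc5l). In C against A they were -0.268 to 0.392 (Arpc1a), -0.310 to 0.038 (Arpc2), -0.485 to 0.305 (Arpc3), -0.462 to 0.725 (Arpc4) and -0.096 to 0.516 (Arpc5l). In B against A they were -0.155 to 0.026 (Actr2), -0.192 to 0.120 (Actr3), -0.169 to 0.491 (Arpc1a), -0.569 to 0.618 (Arpc4), -0.408 to 0.351 (Arpc5) and -0.339 to 0.183 (Arpc5l). Quantile normalization turned Arpc1a in C against A to -0.001 and Arpc4 in B against A to -0.098. Without C2 and A2, Arpc1a moved to 0.623 in C against A and Arpc5l to 0.594 in C against B, and the turned values were 0.131 (Arpc1a) and -0.111 (Arpc4) in C against B, -0.679 (Arpc4) in C against A, and 0.024 (Actr2) and -0.569 (Arpc4) in B against A. The cause was not tested. The length of the coding transcript and the fits without C2 and A2 were chosen after seeing the data. Depth limits Arpc1b, Arpc4, Arpc3 and Arpc5 most.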
